A study of Mus musculus with 92 samples.

Results

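The genes described here build and run the calcium store of skeletal muscle. Of 10 listed genes, 9 had a row among the 13441 genes of the table: the fast and slow calcium pumps Atp2a1 and Atp2a2, the release channel Ryr1, its voltage sensor Cacna1s, the junctional protein Jph2, the fast and slow calsequestrins Casq1 and Casq2, sarcalumenin (Srl) and parvalbumin (Pvalb). Sln was not analysed here. The genes were chosen by name, without a rule on their values. Whole quadriceps was taken from 92 DOz mice, an outbred stock, all kept on chow and aged about 18 to 20 weeks, and polyadenylated RNA was sequenced with 1 library from each animal. The labels state 1 group with no genotype and no treatment other than the diet, so every result below is a level, a spread between animals, or a relation between transcripts over the 92 animals, and each p-value measures only the spread between these animals.

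In a resting fibre, calcium is held inside the sarcoplasmic reticulum, bound to calsequestrin and to the glycoprotein sarcalumenin. An action potential moves the voltage sensor Cacna1s in the transverse tubule, which opens the release channel Ryr1 across a junction held together by junctophilin, and the pump then returns calcium to the store. Fast fibres use the pump Atp2a1, the calsequestrin Casq1 and the soluble cytosolic buffer parvalbumin, while slow fibres use the pump Atp2a2 and also carry Casq2, and both of these are the forms found in the heart.

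The upstream sequences of 4 of the genes are shown as a description. Casq1, Pvalb and Jph2 varied together between animals, as did Atp2a1 and Cacna1s, whose entries are not shown. Casq2 had no relation to Casq1 that passed a test and ran against Jph2, which did not hold under every alternative. Whether these sequences bear on how the genes vary was not tested. RefSeq promoter entries (build GRCm38.p6) were matched for 7 of the 9 genes. Each line gives the 250 bases before the start site on the gene's own strand, 5′ to 3′, and capitals mark each E-box, the core to which myogenic factors such as MyoD bind, and each match to the MEF2 consensus.
Casq1, chr1:172219896-172220145, minus strand: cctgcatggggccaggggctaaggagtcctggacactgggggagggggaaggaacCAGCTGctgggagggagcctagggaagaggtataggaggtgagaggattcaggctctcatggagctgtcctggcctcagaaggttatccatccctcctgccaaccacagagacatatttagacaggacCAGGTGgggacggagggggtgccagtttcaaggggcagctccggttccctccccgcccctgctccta
Pvalb, chr15:78206401-78206650, minus strand: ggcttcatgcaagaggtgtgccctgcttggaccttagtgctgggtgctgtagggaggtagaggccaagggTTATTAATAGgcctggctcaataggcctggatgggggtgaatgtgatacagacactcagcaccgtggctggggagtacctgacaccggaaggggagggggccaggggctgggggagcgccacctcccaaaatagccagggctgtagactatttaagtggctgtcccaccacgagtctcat
Jph2, chr2:163397994-163398243, minus strand: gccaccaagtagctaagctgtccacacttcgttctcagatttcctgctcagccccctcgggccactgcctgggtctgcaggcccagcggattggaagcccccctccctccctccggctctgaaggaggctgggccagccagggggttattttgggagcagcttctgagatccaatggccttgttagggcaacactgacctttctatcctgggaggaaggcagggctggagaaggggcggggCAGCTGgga
Casq2, chr3:102086165-102086414, plus strand: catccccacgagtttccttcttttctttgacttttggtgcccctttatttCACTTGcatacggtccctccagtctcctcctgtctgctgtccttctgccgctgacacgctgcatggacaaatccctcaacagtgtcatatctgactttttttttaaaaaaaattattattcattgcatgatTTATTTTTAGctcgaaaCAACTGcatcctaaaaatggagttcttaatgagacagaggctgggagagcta

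An E-box (CANNTG, which reads the same on both strands) was found upstream of 6 of the 7 genes with an entry, in at least 1 entry of each, and in 66.2% of the 32536 windows of the same length. The Pvalb window shown held none, and the E-box of Pvalb lay before its other start site. A match to the MEF2 consensus, searched on both strands, was found upstream of 2 of the 7 genes, Pvalb and Casq2, and in 2.89% of all windows. These matches describe letters in a window and no binding was measured.

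Sample medians lay between 3.43 and 3.55 on the log2 scale, no value was missing, and no pair of libraries was a duplicate. The numbers in the sample titles form 5 runs of 33, 14, 21, 11 and 13 animals. What the runs are is not stated in the labels, and the called relations among the 9 genes and with fibre type are also given within these title-number blocks, while those of the pathway genes and nearest partners are not. Myh4, the myosin heavy chain of the fastest fibres (type IIB), was the most abundant transcript in 85 of the 92 animals. Transcripts of other cell types were present in every library: the summed level of 8 macrophage markers ran from 44.9 to 587 on the linear per-million scale, that of 8 fibroblast markers from 767 to 2791, and that of 5 blood markers from 176 to 25249, the widest range of the 8 lists.

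The fast pump was the most abundant of the genes. Atp2a1 (ENSMUSG00000030730, chr7:126445858-126463108 in mm10) stood at 14.68 in the lowest animal, 15.03 in the median animal and 15.67 in the highest on the log2 per-million scale, with a mean of 15.05 ± 0.18 (SD, n = 92). Its mean ranked 3 among all 13441 genes. The slow pump Atp2a2 (ENSMUSG00000029467, chr5:122453513-122502225) stood at 5.35, 6.52 and 8.55 in the lowest, median and highest animals, with a mean of 6.66 ± 0.72 (SD, n = 92). The highest animal therefore had 9.19 times the slow pump transcript of the lowest. The range was 3.20 on the log2 scale, against 0.998 for the fast pump, and the slow pump's highest value lay far below the fast pump's lowest.

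Ryr1 (ENSMUSG00000030592, chr7:29003344-29125179) stood at 11.45 in the lowest animal, 12.14 in the median animal and 12.91 in the highest, with a mean of 12.15 ± 0.26 (SD, n = 92). Cacna1s (ENSMUSG00000026407, chr1:136052750-136119822) stood at 9.53, 10.08 and 10.84, with a mean of 10.08 ± 0.24 (SD, n = 92). Jph2 (ENSMUSG00000017817, chr2:163336242-163397993) stood at 8.75, 9.34 and 9.97, with a mean of 9.32 ± 0.22 (SD, n = 92). The 3 genes of the junction thus each varied over a range of 2.33-fold to 2.74-fold. The highest animal for Cacna1s lay 0.30 above the next on the log2 scale, more than its SD.

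Casq1 (ENSMUSG00000007122, chr1:172209894-172219868) stood at 10.40, 11.10 and 11.91 in the lowest, median and highest animals, with a mean of 11.11 ± 0.25 (SD, n = 92). Casq2 (ENSMUSG00000027861, chr3:102086415-102146514) stood at 1.54, 3.72 and 6.71, with a mean of 3.70 ± 0.81 (SD, n = 92). Casq2 had the widest range of the 9 genes, 36.1-fold, and its highest animal lay 1.56 above the next on the log2 scale. Srl (ENSMUSG00000022519, chr16:4480216-4541816) stood at 10.61, 10.88 and 11.13, with a mean of 10.88 ± 0.12 (SD, n = 92), the narrowest range of the 9 at 1.43-fold. Pvalb (ENSMUSG00000005716, chr15:78191114-78206400) stood at 12.06, 12.57 and 13.41, with a mean of 12.57 ± 0.24 (SD, n = 92).

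**Figure D1:**
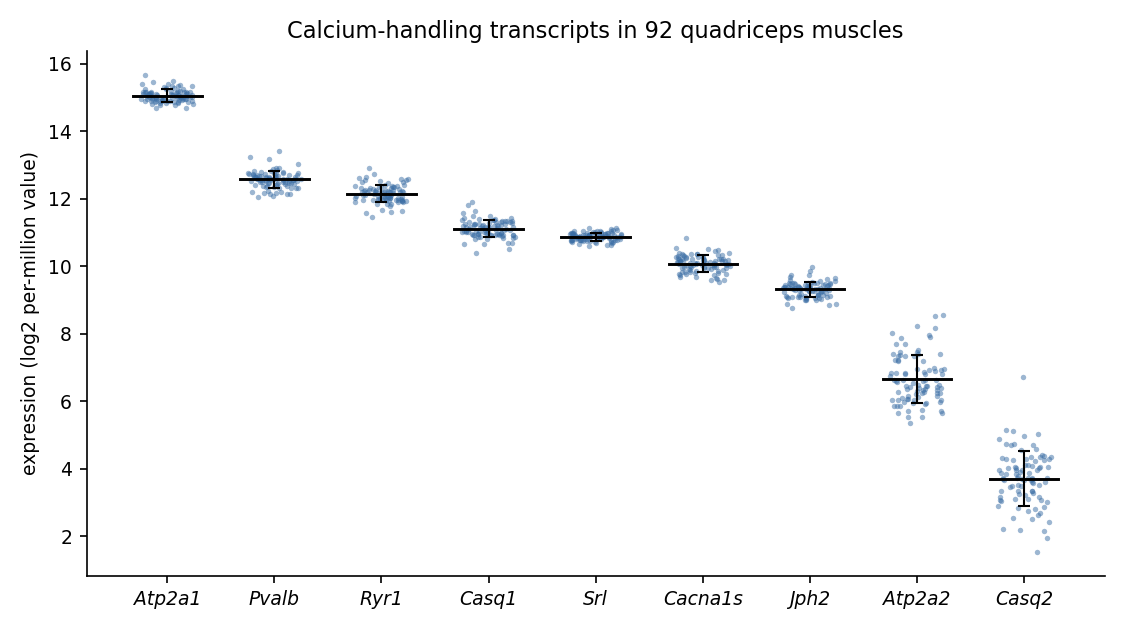
Log2 per-million value (vertical axis) of each calcium-handling gene (horizontal axis) in 92 quadriceps muscles. Points are animals, the long bar is the mean and the whiskers 1 SD. Atp2a2 and Casq2 spread over ranges of 3.20 and 5.17, and Srl over 0.52.

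Levels were compared between genes per kilobase of merged exon. This takes the deposited values as not yet divided by length, which the sources used here do not state. The order and the percentages below rest on it. Undivided, the mean of Ryr1 (12.15) lies above those of Casq1 (11.11) and Srl (10.88). On the log2 scale per kilobase the order was Atp2a1 at 13.25, Pvalb at 12.51, Casq1 at 10.14, Srl at 8.46, Ryr1 at 7.70, Cacna1s at 7.36, Jph2 at 7.23, Atp2a2 at 4.05 and Casq2 at 2.25. The first 4 steps and the step from Jph2 to Atp2a2 kept their direction in 92 of 92 animals, and the step from Atp2a2 to Casq2 in 91. Ryr1 was above Cacna1s in 76 animals and below it in 16, with a mean difference of 0.34 ± 0.33 (SD, n = 92). Cacna1s was above Jph2 in 66 and below it in 26, with a mean difference of 0.14 ± 0.26 (SD, n = 92), within its spread. With the longest transcript as the length, Ryr1 stood at 8.21 and the order of the means did not change, but Srl was then above Ryr1 in 85 animals and Ryr1 above Cacna1s in 92. The slow pump stood at 0.159% of the fast pump per kilobase in the median animal, with a range of 0.0445% to 0.679%, and Casq2 at 0.426% of Casq1, with a range of 0.0540% to 3.27%. Animal 1 set the lowest value of both ratios, and the next lowest were 0.0768% and 0.104%. Animal 84 set the highest ratio of the calsequestrins, and the next was 1.26%.

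Reads could be shared with other genes in some cases. Atp2a1 shared 20.3% of its 31-base words with other transcripts, mostly with Rabep2 on the opposite strand, and Cacna1s shared 18.1%, mostly with Gm37759, also on the opposite strand. Strand use in counting is not given in the sources used here, so levels of these 2 genes carry that uncertainty. The pumps shared only 14 words with each other, 0.229% of those of Atp2a2, and the calsequestrins shared 0.

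Spread was set against a trend of SD on mean over all genes. Atp2a2 exceeded the trend by 1.80 and Casq2 by 1.57 on the log2 scale, above 98.8% and 98.1% of all genes. Srl lay 0.83 below the trend, where only 1.76% of genes lay lower. The other 6 genes lay between -0.31 for Atp2a1 and 0.28 for Ryr1. Over the 9 genes the median SD was 0.24, and over all genes 0.32, without regard to level. Set against the trend, the median of the 9 genes was 0.22 and that of all genes -0.015.

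Fibre type was read from 4 measures that use none of the 9 genes. The slow score is the mean of the standardised levels of Myh7, Tnnt1, Tnni1, Tnnc1, Myl2 and Myl3, which encode the slow myosin heavy chain, slow troponins and slow light chains. The other measures are Myh2, Myh1 and Myh4, the heavy chains of type IIA, IIX and IIB fibres. In bulk muscle a lower transcript level from fewer fibres of a type and one from less RNA per fibre cannot be told apart. The measures were related among themselves: the slow score correlated with Myh2 (r = 0.504, rho = 0.513, permutation p = 1e-05 for both, the smallest that 100000 resamples can give, r = 0.476 once the 2 farthest were left out) and fell with Myh4 (r = -0.324 with permutation p = 0.0015, rho = -0.317 with permutation p = 0.00222, and r = -0.310 once the 2 farthest animals were left out). Within the blocks these correlations ran from 0.229 to 0.832 and from -0.665 to -0.117. Myh2 also correlated with Myh1 (r = 0.463, permutation p = 1e-05, -0.039 to 0.685 within blocks), so slopes on these 2 measures are not independent. The slow score with Myh1 (0.188), Myh2 with Myh4 (-0.192) and Myh1 with Myh4 (-0.213) were weaker (permutation p = 0.0721, 0.0663 and 0.0419). Slopes are log2 units per SD of the measure, from limma with Benjamini-Hochberg adjustment over all genes tested.

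Along the slow score, 2 of the 9 genes rose, 0 fell and 7 did not pass, while 0.461% of all 13435 genes tested passed, 0.424% rising and 0.0372% falling. The 2 genes were the slow pump and the slow calsequestrin. Atp2a2 rose by 0.66 ± 0.03 (SE, limma adjusted p = 2.42e-36), a 1.58-fold change per SD. Its correlation was r = 0.923 and rho = 0.923 (permutation p = 1e-05 for both), 0.916 once the 2 farthest were left out, and 0.899 to 0.954 over the 5 blocks. Casq2 rose by 0.43 ± 0.07 (SE, limma adjusted p = 2.13e-05), or 1.35-fold per SD, with r = 0.531 and rho = 0.524 (permutation p = 1e-05 for both), r = 0.518 once the 2 farthest were left out, and 0.389 to 0.772 over the blocks. The plot of both genes against the slow score shows a narrow band for Atp2a2 and a wide one for Casq2. Casq2 no longer passed when Myh7 alone stood for slow fibres (slope 0.28, limma adjusted p = 0.178) or when the 4 measures were fitted together (0.25, limma adjusted p = 0.359).

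The fast forms did not fall measurably along the slow score. Atp2a1 had a slope of -0.019 with an interval of 2 SE from -0.060 to 0.022, and Casq1 a slope of -0.022 with an interval from -0.075 to 0.031. Pvalb stood at -0.037 with an interval from -0.087 to 0.013. Ryr1 at -0.057 and Jph2 at -0.050 had intervals that excluded 0, but neither passed the adjustment (limma adjusted p = 0.560 and 0.529). These intervals hold changes of a few percent per SD and leave out any as large as that of Casq2.

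**Figure D2:**
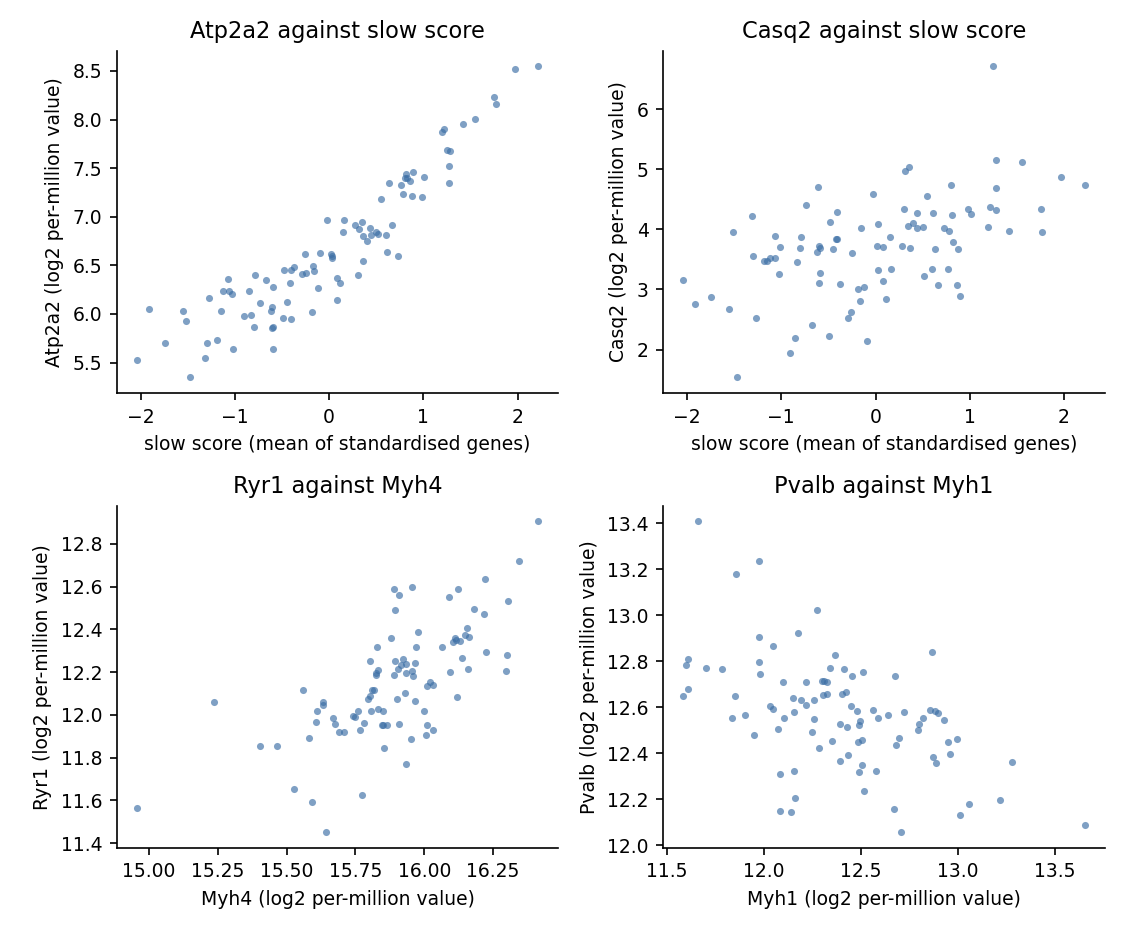
Log2 per-million value of Atp2a2 and of Casq2 against the slow score, of Ryr1 against Myh4 and of Pvalb against Myh1, with 1 point per animal. Correlations are 0.923, 0.531, 0.686 and -0.516, and 1 animal stands apart in Casq2 at 6.71.

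The difference between slow and fast forms was also taken within each animal. Because the slow forms vary far more than the fast ones, each difference mostly follows its slow form, and its relation to the slow score is no separate support for the slopes above. The value of Atp2a2 minus Atp2a1 was -10.33 in the lowest animal, -8.49 in the median and -6.40 in the highest, and rose with the slow score (r = 0.876, rho = 0.882, permutation p = 1e-05 and adjusted p = 1e-05 over 2 tests). It was 0.867 with the 2 farthest left out and ran from 0.797 to 0.928 within blocks. For Casq2 minus Casq1 the values were -10.37, -7.39 and -4.45, with r = 0.512 and rho = 0.521 (permutation p = 1e-05, adjusted p = 1e-05 over 2 tests), 0.503 once the 2 farthest were left out and 0.310 to 0.826 over the blocks. The fast form alone had no slope past the test in either case.

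Along Myh2, 6 of the 9 genes passed, against 5.26% of all 13440 genes tested. Of the 9, 2 rose and 4 fell, against 2.91% and 2.35% of all genes. Atp2a2 rose by 0.37 ± 0.06 (SE, limma adjusted p = 2.71e-05) and Casq2 by 0.37 ± 0.07 (SE, limma adjusted p = 0.000509), with r = 0.519 and 0.456 and positive values in each block, from 0.177 to 0.791 and from 0.200 to 0.725. Pvalb fell by 0.12 ± 0.02 (SE, limma adjusted p = 0.000114), with r = -0.503 and rho = -0.540 (permutation p = 1e-05 for both), -0.489 once the 2 farthest were left out and -0.655 to -0.260 over the blocks. Casq1 fell by 0.093, Atp2a1 by 0.077 and Jph2 by 0.077 (limma adjusted p = 0.0136, 0.00530 and 0.0186), with block correlations of -0.448 to -0.155, -0.659 to -0.122 and -0.550 to 0.0012. Without the 2 farthest animals Casq1 and Jph2 lost their calls (limma adjusted p = 0.0527 and 0.0554), with slopes of -0.079 and -0.068, and with marker scores in the fit Jph2 did not pass (slope -0.063, 0.0594). After quantile normalisation the slope of Atp2a1 was -0.022 (limma adjusted p = 0.577). Ryr1, Srl and Cacna1s did not pass, at 0.034, -0.015 and -0.038. With the 4 measures fitted together, only Pvalb of these 6 still passed (-0.096, limma adjusted p = 0.0293), and Ryr1 now passed with a positive slope of 0.085 (limma adjusted p = 0.0376). Among the calls lost in that fit, the slopes of Casq1 (-0.091) and Atp2a1 (-0.070) were about as large as before, while those of Atp2a2 (0.082), Casq2 (0.11) and Jph2 (-0.046) were smaller. With the first 3 principal components as covariates, 3 passed, and Atp2a1 (-0.040, limma adjusted p = 0.153), Casq1 (-0.051, 0.260) and Jph2 (-0.064, 0.0882) did not.

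Along Myh1, 4 of the 9 genes passed, against 3.97% of all genes, with 1 rising and 3 falling against 2.57% and 1.4%. Casq2 rose by 0.32 ± 0.08 (SE, limma adjusted p = 0.00555), and its r was 0.394 (permutation p = 8e-05) and its rho 0.303 (permutation p = 0.00364), with -0.018 to 0.666 over the blocks. Pvalb fell by 0.12 ± 0.02 (SE, limma adjusted p = 6.49e-05), with r = -0.516 and rho = -0.499 (permutation p = 1e-05 for both), -0.477 once the 2 farthest were left out and -0.666 to -0.132 over the blocks. Jph2 fell by 0.079 and Atp2a1 by 0.072 (limma adjusted p = 0.0169 and 0.0133), with block correlations of -0.464 to -0.160 and -0.543 to -0.077. The call of Jph2 was lost without animal 1, with a slope of -0.068 (limma adjusted p = 0.0525). The call of Atp2a1 was lost with the length index as a covariate (limma adjusted p = 0.0527) and after quantile normalisation, where its slope was -0.0056 (limma adjusted p = 0.915). Casq1 stood at -0.073 and did not pass (limma adjusted p = 0.0912), but passed after quantile normalisation at -0.12 (limma adjusted p = 0.000659), so the 4 called genes were then not the same 4. Atp2a2, in contrast to its slope on Myh2, stood at 0.093 with an interval of 2 SE from -0.053 to 0.240. With the 4 measures fitted together 0 of the 9 passed in limma, where 93 of all genes were called and an unadjusted p under 0.05 was found for 1500.

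Along Myh4, 6 of the 9 genes passed, but so did 21.3% of all genes. Of the 9, 4 rose and 2 fell, against 11.6% and 9.72% of all genes. Ryr1 rose by 0.18 ± 0.02 (SE, limma adjusted p = 3.3e-10), or 1.13-fold per SD, with r = 0.686 and rho = 0.677 (permutation p = 1e-05 for both), 0.692 once the 2 farthest were left out and 0.514 to 0.758 over the blocks. Jph2 rose by 0.095 ± 0.021 (SE, limma adjusted p = 0.000393) and was positive in 4 of the 5 blocks. Srl rose by 0.061 ± 0.011 (SE, limma adjusted p = 2.77e-05), with r = 0.520 and rho = 0.507 (permutation p = 1e-05 for both) and 0.187 to 0.697 over the blocks. Casq2 fell by 0.41 ± 0.07 (SE, limma adjusted p = 1.02e-05), with r = -0.509 (permutation p = 1e-05), rho = -0.399 (permutation p = 9e-05), -0.396 once the 2 farthest were left out and -0.663 to -0.268 over the blocks. Pvalb at 0.066 and Atp2a2 at -0.19 passed narrowly (limma adjusted p = 0.0416 and 0.0492), with 0.166 to 0.571 and -0.561 to -0.172 over the blocks, and each was lost without animal 1, at 0.0689 and 0.0696, and without animal 84, at 0.123 and 0.127.

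Along Myh4, 14 of 57 markers of 8 cell types passed, all falling, against 21.3% of all genes called and 9.72% falling. They were 7 of 8 macrophage, 4 of 8 fibroblast and 3 of 5 satellite cell markers. Along the slow score, Myh2 and Myh1, 0 of 57 passed in limma, where 0.461%, 5.26% and 3.97% of all genes were called. All 5 satellite cell markers had positive slopes on the slow score. Their score correlated at 0.304 with the slow score, 0.298 with Atp2a2 and 0.305 with Casq2, given as descriptions. With the marker scores as covariates, Ryr1 stood at 0.19, Srl at 0.062, Jph2 at 0.074 and Casq2 at -0.36 per SD of Myh4, and these 4 still passed. Quantile normalisation, which compresses the SD of Myh4 from 0.24 to 0.16 because it is the top gene of most samples, left 0 of the 9 past the test in limma, with 194 of all genes called and 2097 at an unadjusted p under 0.05. The slope of Ryr1 was then 0.067 (limma adjusted p = 0.173). Across the alternatives that kept its call, the slope of Ryr1 on Myh4 lay between 0.12 and 0.19.

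**Figure D3:**
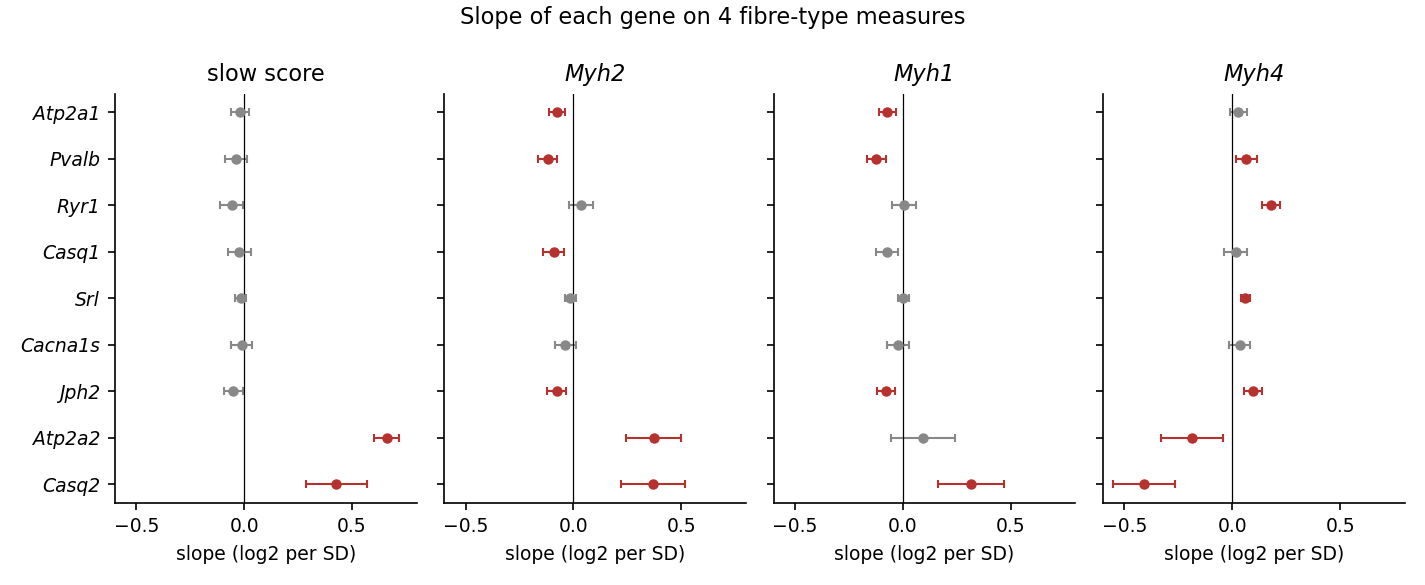
Slope of each gene (rows) on the slow score, Myh2, Myh1 and Myh4 (panels) in log2 units per SD, with bars of 2 SE and red where the limma adjusted p was under 0.05. Atp2a2 and Casq2 lie right of 0 for the slow score, at 0.66 and 0.43, and Cacna1s is grey in every panel.

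Cacna1s passed for none of the 4 measures in limma at an adjusted p under 0.05, nor at an unadjusted p under 0.05, with slopes from -0.038 to 0.034 in the fits without covariates. The 4 measures together accounted for 4.23% of its variance, below the all-gene median of 7.92%. At the other end they accounted for 86.3% of the variance of Atp2a2 and 56.6% of that of Ryr1, a share over 50% being found in 0.171% of all genes. For Casq2 the share was 48.05%, for Pvalb 39.3%, for Srl 30.01%, for Jph2 29.2%, for Atp2a1 25.1% and for Casq1 16.2%.

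A length-related measure of the libraries moved with some of these genes. For each library, the length index is the slope of gene deviations on log2 exon length, so a high value means that long genes stood relatively higher. What it reflects was not tested. Over the 92 animals it correlated at 0.615 with Ryr1, the longest of the genes, and at -0.586 with Atp2a1, -0.453 with Pvalb, -0.371 with Casq1, -0.287 with Cacna1s, itself a long gene, 0.378 with Myh4, 0.338 with Myh2 and 0.211 with Myh1, given as descriptions. It was near 0 for the slow score (-0.073), Atp2a2 (0.054) and Casq2 (-0.039). With the length index as a covariate, Ryr1 still rose along Myh4 by 0.14 (limma adjusted p = 6e-08), and 8 of the 9 genes passed, where 2235 of all 13440 genes did. Atp2a1 (0.079, limma adjusted p = 0.000192) and Cacna1s (0.070, 0.0419) passed along Myh4 only in this fit of those run, and Casq1 did not (0.061, 0.0920). Along Myh2 in that fit, 4 passed, and Casq1 and Atp2a1 did not (limma adjusted p = 0.161 and 0.169). The slope of Atp2a1 was smaller there but kept its sign, at -0.047 against -0.077 without the covariate.

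Each of the 9 genes was then used as the predictor over all genes, and a pair was called where it passed in both directions. Of 36 pairs, 14 were called, 13 positive and 1 negative. The share of all genes called was 28.8% for Atp2a1, 22.1% for Ryr1, 18.9% for Pvalb, 13.2% for Casq1, 9.9% for Srl, 9.72% for Cacna1s, 7.75% for Jph2, 4.43% for Casq2 and 0.424% for Atp2a2, and most of these shares moved with the processing. With Casq2 as the predictor 596 genes were called, 119 without animal 84, 387 without animal 1 and 68 without the 2 farthest animals. With Atp2a1 the number went from 3864 to 17 after quantile normalisation. With Cacna1s it went from 1307 to 790 without animal 1 and to 18 with 3 principal components as covariates, and with Jph2 from 1041 to 564 without animal 1. All 10 pairs among Atp2a1, Casq1, Pvalb, Jph2 and Cacna1s were positive calls, a grouping seen in the values and given as a description. The fast pump and parvalbumin had the largest correlation, r = 0.769 (rho = 0.742, permutation p = 1e-05 for both, 0.725 with the 2 farthest left out, 0.589 to 0.864 over the blocks). Casq1 and Pvalb followed at r = 0.754 (rho = 0.725, permutation p = 1e-05 for both, 0.706 without the 2 farthest animals, 0.428 to 0.824 within blocks). Pvalb and Jph2 stood at 0.683 and Atp2a1 and Cacna1s at 0.665, both with permutation p = 1e-05.

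Casq1 and Atp2a1 had r = 0.629, Casq1 and Jph2 0.604, Casq1 and Cacna1s 0.519 and Pvalb and Cacna1s 0.505, each with permutation p = 1e-05. Atp2a1 and Jph2 stood at 0.465 and Jph2 and Cacna1s at 0.384 (permutation p = 2e-05 and 0.00017). Spearman's rho of the 10 pairs lay between 0.353 and 0.742. All 10 were positive in each of the 5 blocks, from 0.053 to 0.864. Jph2 with Cacna1s was not called without animal 1, and after quantile normalisation the 4 pairs that hold Atp2a1 were not called while the other 6 were, and the slope between Atp2a1 and Casq1 changed sign (larger limma adjusted p = 0.996). The score of the macrophage markers correlated at -0.460 with Atp2a1, -0.523 with Cacna1s, -0.354 with Pvalb, -0.329 with Jph2 and -0.226 with Casq1, given as descriptions. The fibroblast score was negative for all 5 as well, from -0.425 for Atp2a1 to -0.103 for Casq1, and so was the adipocyte score, from -0.327 for Casq1 to -0.211 for Cacna1s. With the scores of all marker lists as covariates, Atp2a1 with Jph2 and Jph2 with Cacna1s were not called (larger limma adjusted p = 0.167 and 0.273), and the other 8 pairs were. Without the 2 farthest animals Jph2 with Cacna1s was not called (0.0514). With 3 principal components as covariates Atp2a1 with Jph2, and Cacna1s with Casq1, Pvalb and Jph2, were not called. After the 4 fibre measures were regressed out, the 10 correlations lay between 0.340 for Atp2a1 with Jph2 and 0.725 for Casq1 with Pvalb, as a description. The other 4 called pairs shrank on the same step, Atp2a2 with Casq2 from 0.515 to 0.145, Ryr1 with Srl from 0.374 to 0.045, Ryr1 with Jph2 from 0.306 to 0.176 and Casq2 with Jph2 from -0.408 to -0.115. All 10 also stayed called with the length index as a covariate, which raised the number of called pairs from 14 to 21.

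The release channel was not called with its own voltage sensor. Ryr1 and Cacna1s had r = 0.162 (rho = 0.152, permutation p = 0.121 and 0.148, -0.021 to 0.450 over the blocks). Ryr1 and Atp2a1 had r = -0.091 (permutation p = 0.392) and were not called, but the pair was called with the same sign when the marker scores were covariates (limma adjusted p = 0.0242) and with the opposite sign when the length index was (0.00434). Ryr1 was called with Srl (r = 0.374 with permutation p = 0.0002, rho = 0.344 with permutation p = 0.00085, 0.122 to 0.537 over the blocks) and with Jph2 (r = 0.306 with permutation p = 0.00335, rho = 0.347 with permutation p = 0.0009). The call with Srl was lost after quantile normalisation (limma adjusted p = 0.0661) and after rescaling without the 10 most abundant genes (0.0954). The call with Jph2 ran from -0.162 to 0.757 over the blocks. It was lost without animal 1 or without animal 84, with the principal components or the marker scores as covariates, after quantile normalisation and after rescaling. Ryr1 with Cacna1s was not called in the main fit and was called when the length index was a covariate. That covariate also gave calls of Ryr1 with Pvalb, with the opposite sign to the main fit (larger limma adjusted p = 0.0180), and with Casq2, with the same sign (0.0250).

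The slow pump and Casq2 were called together at r = 0.515 (rho = 0.504, permutation p = 1e-05 for both, 0.483 without the 2 farthest animals, 0.452 to 0.758 within blocks). Neither was called with Atp2a1, Casq1 or Pvalb in the fit without covariates. Of these pairs, Casq2 with Pvalb (r = -0.306, permutation p = 0.0029, rho = -0.222) and with Atp2a1 (r = -0.291, permutation p = 0.00512, rho = -0.183) had the largest r. Both passed in 1 direction only (limma adjusted p = 0.0205 and 0.0191, against 0.0605 and 0.103). The others ran from -0.215 to -0.149. Casq2 and Pvalb were called, with a negative sign, when the block (limma adjusted p = 0.0495), the principal components (0.0154) or the length index (0.0163) was a covariate, and Casq2 and Atp2a1 with the components (0.0129) or the length index (0.0193). The 1 negative call joined Casq2 and Jph2 (r = -0.408 with permutation p = 7e-05, rho = -0.313 with permutation p = 0.0024, -0.520 to 0.040 over the blocks), which fell to -0.293 and lost its call without the 2 farthest animals and also with the marker scores as covariates.

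**Figure D4:**
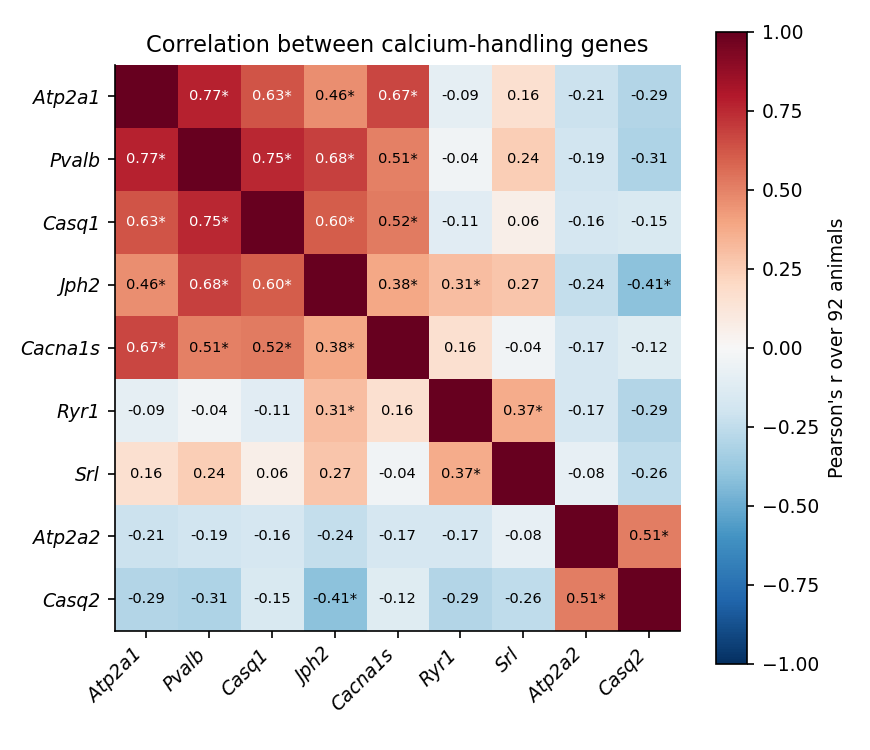
Pearson's r over 92 animals for each pair of calcium-handling genes, red for positive and blue for negative, with a star where a pair passed the limma adjusted p of 0.05 in both fits. Atp2a1, Pvalb, Casq1, Jph2 and Cacna1s form a block of positive values from 0.38 to 0.77.

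Other genes of calcium handling were taken from a list of 59 genes, of which 54 were in the table. Along the slow score 1 of the 54 rose and 0 fell, against 0.424% and 0.0372% of all genes. It was Homer2, a scaffold protein that binds calcium channels, at 0.29 ± 0.05 (SE, limma adjusted p = 4.44e-05). The median slope of the list was -0.0084, against -0.00082 for all genes. Along Myh2, 1 rose and 8 fell, against 2.91% and 2.35% of all genes, with Homer2 at 0.30 and the fall led by Mrln (-0.14), which encodes the pump inhibitor myoregulin. It was followed by Cacng1 (-0.088), a subunit of the voltage sensor complex, Trdn (-0.085), triadin, which links calsequestrin to Ryr1, and Calm3 and Jsrp1 (-0.084 and -0.083). Along Myh1, where 2.57% of all genes rose and 1.4% fell, Homer2 rose by 0.23. The 4 of the 54 that fell were Mrln at -0.17, Calm3 at -0.098, Orai3 at -0.069 and Calm2 at -0.060.

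Along Myh4, 17 of the 54 rose and 3 fell, against 11.6% and 9.72% of all genes. Slopes of the pathway genes are given from the fit without covariates only. In the alternatives, 194 of all genes were called along Myh4 after quantile normalisation and 316 with 3 principal components. The largest rises were those of Dysf, a membrane repair protein, at 0.23, Slc8a1, the sodium-calcium exchanger, at 0.19, and Camk2a, Speg and Mrln at 0.14 each. Selenon fell by 0.099, Sri by 0.090 and S100a1 by 0.063. The rises were found in the junction group (5 of 15) and the cytosolic sensors (8 of 13), among other groups. Mrln, which lowers the activity of the fast pump, thus rose along Myh4 and fell along Myh2 and Myh1.

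The genes outside the list of 9 with the highest Pearson's r over the 92 animals are given by name and with no claim of shared function. For Atp2a2 they were Tnnt1 (0.920), Tpm3 (0.896) and Myl2 (0.893), of which Tnnt1 and Myl2 are part of the slow score, against a median absolute r of 0.080 over all genes. For Casq2 they were Myoz2 (0.670), Fhl1 (0.601) and Lmod2 (0.597), none of them in the slow score. Rtn2 was nearest to Atp2a1 (0.783) and Pvalb (0.759) and among the nearest 3 of Cacna1s (0.576). Atp2a1 was also close to Pdlim7 (0.742) and Trdn (0.728), and Pvalb to the fast troponins Tnnc2 (0.712) and Tnnt3 (0.707). Ryr1 was nearest to Scn4a, the muscle sodium channel (0.759), Speg (0.759) and Pip4k2b (0.745). Jph2 was nearest to Stac3 (0.640), Ank1 (0.614) and Prkag3 (0.587), and Casq1 to Hras (0.707), Prkag3 (0.642) and Ehbp1l1 (0.636). Cacna1s was nearest to Mpst (0.620) and Actn3 (0.580), and Srl to Tmod1 (0.586), Mia3 (0.577) and Pfkm (0.576). No other listed gene had a partner as close as those of Atp2a2. The median absolute r over all genes was lowest for Atp2a2 and highest for Atp2a1, at 0.178.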

How the data were processed

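Polyadenylated RNA of 92 quadriceps muscles was measured. The authors deposited 1 table of log2 values, and since the linear values of a sample summed to between 898071 and 1140761, their scale was taken as near to log2 per-million. Per the submitters' processing notes, bcl2fastq, MultiQC, kallisto 0.50.1, edgeR and mm10 were used, with no roles given; filters, the prior count and whether values are gene sums are not given in the sources used here. Depth is therefore unknown and precision comes from the spread between animals. Of 13456 lines, 15 repeats were removed. Slopes came from limma 3.58.1 (R 4.3.3) with the trend option, and p-values were adjusted over all genes by Benjamini-Hochberg at a threshold of 0.05. The genes that make up a measure were left out of its fit. The fits were tested on data simulated with independent noise for each gene and slopes planted on the slow score. Such data hold none of the variation that genes share between libraries, so the test does not cover it. Correlations used two-sided permutation tests with 100000 resamples, over 36 pairs of genes and 36 relations to fibre measures, and the adjusted p beside them is limma's. SciPy 1.17.1 was used. Lengths and coordinates are from GENCODE M21 (mm10). The MEF2 consensus is the 10-base motif. The genes and lists were chosen with earlier results of these data known. Named genes were the listed genes, up to 5 rising and 5 falling pathway genes per measure with the largest slopes and a mean of at least 1, and for each listed gene the 3 others with the highest r; 1 result for a pathway gene is not reported here. Alternatives changed the covariates, scaling, filter, score and animals.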

Additional observations from a re-analysis of the deposited data

How the results depend on the processing

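The relations of Atp2a2 minus Atp2a1 and of Casq2 minus Casq1 with the slow score kept their direction and call under every alternative run (r from 0.769 to 0.908 and from 0.327 to 0.521). Leaving out animal 1 or animal 84, rescaling without the 10 most abundant genes and the length index were added after seeing the data. The number of genes called for the slow score fell from 62 to 8 with the 4 measures fitted together and to 17 with Myh7 alone, and of the 9 genes to 1 in both. For Myh2, 707 genes became 313 with 3 principal components, 349 in the joint fit, 318 with the length index and 1150 after quantile normalisation, and 6 of the 9 became 3 with the components and 2 in the joint fit. For Myh1, 534 became 93 in the joint fit and 949 after quantile normalisation, and 4 of the 9 became 0 in the joint fit. For Myh4, 2867 became 316 with the components, 1808 with marker scores and 194 after quantile normalisation, which left 0 of the 9, and called pairs went from 14 to 8. The causes were not tested. Rescaling moved the median of all genes by -0.12 to 0.17 between samples.

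The slopes below changed sign, each with a limma adjusted p above 0.05 under the alternative, and of these only Atp2a2 on Myh4 had been called. On the slow score they were, in the joint fit, Atp2a1 0.029, Casq1 0.031, Pvalb 0.040, Srl 0.011, Jph2 0.0072 and Cacna1s 0.020; with Myh7 alone, Atp2a1 0.0058 and Cacna1s 0.0093; and Cacna1s 0.00015 with the block and 0.0018 without animal 1 (-0.0046 without animal 84). On Myh2, Ryr1 became -0.023 with the length index. On Myh1, the joint fit gave Atp2a2 -0.060 and Cacna1s 0.0011, the length index gave Ryr1 -0.029 and Srl -0.0021, and Srl was -0.00033 with the block, -0.028 after quantile normalisation and -0.0027 after rescaling. On Myh4, marker scores gave Atp2a1 -0.0075, Casq1 -0.0041 and Cacna1s -0.025, rescaling gave Casq1 -0.0059, and the joint fit gave Atp2a2 0.023. After quantile normalisation the spread of Atp2a1 over the trend was 0.037 and that of Pvalb -0.047. Depth is unknown, so no limit on low values from read counts can be given, and Casq2, the lowest of the genes, is the one this touches most. No paired analysis was possible because the labels give 1 group.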

Other observations

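Extreme values gathered in a few animals, which the labels do not set apart. Animal 1 was highest of the 92 for Atp2a1 (15.67), Casq1 (11.91), Pvalb (13.41), Jph2 (9.97) and Cacna1s (10.84) and lowest for Atp2a2 (5.35) and Casq2 (1.54), and ranked 87 by slow score from the top. Animal 84 was highest for Casq2 (6.71) and lowest for Atp2a1 (14.68), next to lowest for Ryr1 (11.57), ranked 10 by slow score, and had a Myh4 of 14.96, the lowest of the 92. Animal 42 was highest for Atp2a2 (8.55) and first by slow score. Animal 35 was highest for Ryr1 (12.91) and Srl (11.13), ranked 90 by slow score and had the highest Myh4 (16.41). Animal 62 was lowest for Casq1 (10.40) and Jph2 (8.75).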
